A study of Mus musculus with 6 samples.

Results

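The MEF2 factors and the class IIa histone deacetylases (HDACs) form a transcription switch of 8 genes, Mef2a, Mef2b, Mef2c, Mef2d, Hdac4, Hdac5, Hdac7 and Hdac9. Their rows were taken by gene name from a table of 16440 genes, and all 8 were in it. RNA sequencing had been run on sorted mouse bone marrow (BM) cells of strain FVB/NJ, with 3 libraries from normal myeloid progenitors (MPs) and 3 from acute promyelocytic leukemia (APL) progenitors. Normal MPs were taken by the gate Lin-Sca-1-c-Kit+, so that lineage-positive cells and Sca-1+ stem cells were excluded. The APL cells arose in hMRP8-PML/RARα transgenic mice, in which the human MRP8 promoter drives the fusion protein in myeloid cells, were given GFP by the retroviral vector MigR1, were expanded in young adult syngeneic recipients and were sorted as GFP-labeled c-Kit+ cells. No drug treatment is named for these 6 libraries, and the age of the mice that gave the normal MPs is not given in the sources used here. Because the design text speaks of 3 biological replicates per group without saying that they were separate mice, n counts libraries and the p-values measure the spread between them. Libraries MP 1 to 3 held 23606024, 22976897 and 26932327 fragments assigned to genes, and APL 1 to 3 held 20608728, 28382783 and 20911962. Kit was at 70.6, 74.5 and 72.2 FPKM (fragments normalized to transcript length and library depth) in MP 1 to 3 and at 39.6, 40.7 and 40.7 FPKM in APL 1 to 3, so it was present in both groups. Cd34, a surface marker of stem and progenitor cells, was at 83.9, 87.4 and 112 FPKM in MP 1 to 3 and at 1.04, 1.26 and 1.14 FPKM in APL 1 to 3, and Flt3, a progenitor cytokine receptor, lay between 14.6 and 22.8 FPKM against 0.279 to 0.336 FPKM. Ly6a, which encodes Sca-1, lay between 0.955 and 1.59 FPKM in normal MPs and between 2.02 and 2.37 FPKM in APL progenitors. Of the 6 stem and progenitor genes read, 5 were lower and Ly6a was higher by the limma test used for all genes, and their part in the differences of the 8 genes was not tested.

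MEF2 proteins are MADS-box transcription factors that bind an A/T-rich element in the promoters and enhancers of their targets. Class IIa HDACs bind MEF2 on DNA and bring in corepressors, since their own deacetylase activity is weak. Calcium/calmodulin-dependent, protein kinase D and salt-inducible kinases phosphorylate class IIa HDACs, 14-3-3 proteins then hold them in the cytoplasm, and MEF2 is freed to recruit coactivators. In blood, Mef2c is known for its part in monocytic, lymphoid and megakaryocytic development, Mef2d for a fusion in lymphoid leukemia, and Hdac7 for the control of B-cell identity.

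The MEF2 factors and their HDAC partners were not at the same levels in c-Kit+ APL progenitors and in normal MPs. Mef2c, Mef2d and Hdac7 fell, Hdac5 and Hdac9 rose, and Mef2a, Mef2b and Hdac4 did not pass the test. A gene was called at an adjusted p under 0.05 and a fold change over 1.5, with limma fitted to log2(scaled fragments + 1) and Benjamini-Hochberg adjustment over the 14595 genes tested. Scaled fragments are the deposited estimates of fragments per gene, already multiplied by a factor for each library, and fold changes on this scale understate the change of genes with few fragments. All 8 members entered the test and 5 were called (62.5%), beside 46.1% of all genes tested. The 3 lower members stand beside 24.4% of all genes called lower, and the 2 higher members beside 21.7% called higher. For the same 5 members the 3 APL values lay wholly on one side of the 3 MP values, beside 70.9% of all genes tested. The median log2 fold change was −0.37 over the members and −0.10 over all genes tested. A two-sided exact permutation test of each of the 5 called members gave p = 0.1, the smallest value that 3 libraries against 3 allow.

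**Figure D1:**
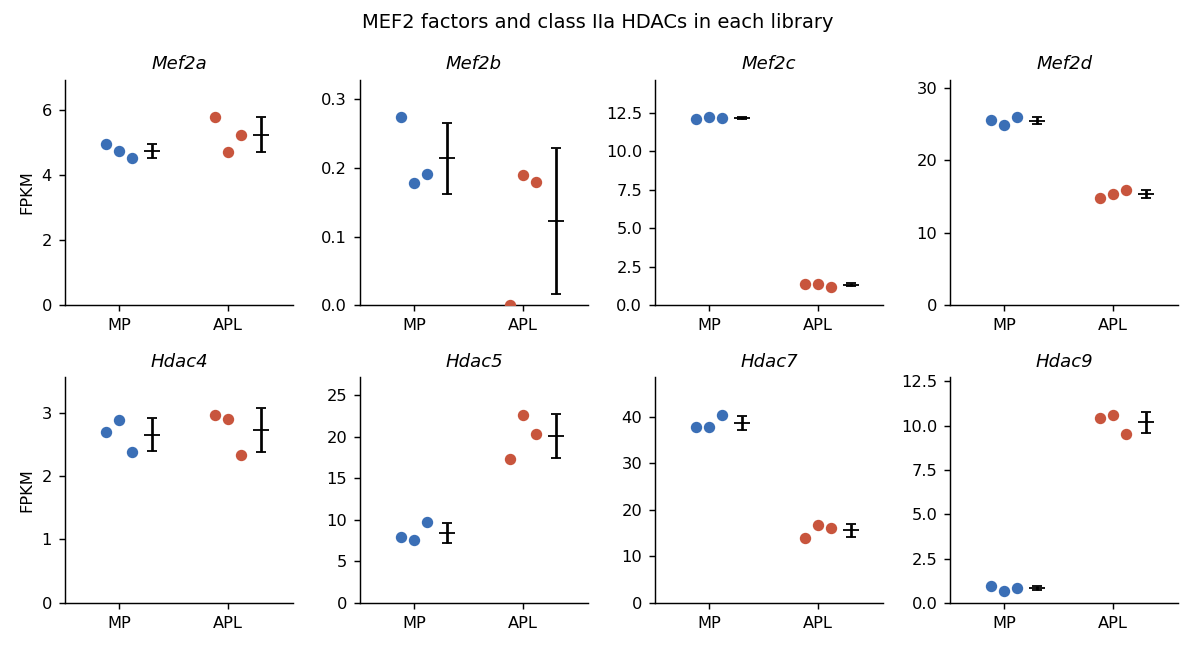
Level in FPKM (y axis, each panel on its own scale from 0) of the 8 genes in each library, as points in the order 1 to 3 for normal MPs (blue) and APL progenitors (red), with the mean and SD as black bars. The MP and APL points lie apart for Mef2c, Mef2d, Hdac5, Hdac7 and Hdac9 and overlap for Mef2a, Mef2b and Hdac4.

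Mef2c, on GRCm38 at chr13:83504034-83667079 (gene identifier 17260), showed the largest decrease of the 8 genes. It had 2130, 2177 and 2097 scaled fragments in MP 1 to 3 and 237, 250 and 220 in APL 1 to 3. Every MP library was several times above every APL library, and the spread within a group was small. Its level went from 12.2 ± 0.0683 FPKM (SD, n = 3) in normal MPs to 1.33 ± 0.104 FPKM (SD, n = 3) in APL progenitors. Scaled fragments decreased 9.05-fold, a log2 fold change of −3.18 (SE 0.08, 95% interval −3.36 to −2.99, limma adjusted p = 1.2e-08). A larger decrease was seen for 6.56% of all genes tested. The call rested on 178 to 288 unscaled fragments in the APL libraries, so the gene was reduced and not absent. Mef2c was singled out by the study on these samples, so its direction is not independent evidence.

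Mef2d, at chr3:88142395-88169167 (gene identifier 17261), was the MEF2 gene with the highest FPKM in both groups. In scaled fragments, Mef2c was above it in normal MPs. Mef2d had 1441, 1382 and 1506 scaled fragments in MP 1 to 3 and 838, 872 and 870 in APL 1 to 3, with no overlap. In FPKM it went from 25.5 ± 0.525 to 15.4 ± 0.517 (SD, n = 3 each). Scaled fragments decreased 1.68-fold, a log2 fold change of −0.75 (SE 0.07, limma adjusted p = 1.8e-05). That fold lies near the limit of 1.5, but the call held under each of the 17 alternative settings.

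Mef2a, at chr7:67233827-67372858 (gene identifier 17258), had 426, 403 and 384 scaled fragments in MP 1 to 3 and 483, 395 and 451 in APL 1 to 3. The groups overlapped, because APL 2 lay below MP 1 and MP 2. Its log2 fold change was 0.13 with a 95% interval from −0.12 to 0.37 (limma adjusted p = 0.316), which leaves out a change of the size of the Mef2d decrease. Mef2b, at chr8:70152778-70167488 (gene identifier 17259), was near the limit of detection in every library. It had 8, 5 and 6 unscaled fragments in MP 1 to 3 and 0, 6 and 4 in APL 1 to 3, and a count of 0 allows up to 3 fragments. The 95% interval of its log2 fold change, from −2.57 to 0.51, is wide, and no difference was detected (limma adjusted p = 0.206). The log2 fold change of −1.03 was −0.16 without APL 1, the library at 0, and −1.48 without APL 2.

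The 5′ ends of the genes were read for short sequence elements. RefSeq promoter windows on GRCm38.p6, from 250 bases before to 50 bases after a transcript start, were found for all 8 genes, 14 windows in all, and were searched on both strands for the 10-base MEF2 consensus and for the hexamer AGGTCA. Retinoic acid receptors, including the RARα portion of the fusion protein, bind pairs of that hexamer. The MEF2 consensus was in 3.19% and the hexamer in 16.3% of all 32851 windows, and no window of the 8 genes held both. The Mef2a window is shown because its MEF2 match, in capitals, starts 2 bases before the transcript start. It lies on the minus strand at chr7:67372809-67373108. The Mef2c window, of an internal start on the plus strand at chr13:83573357-83573656, is shown because it holds 2 copies of the hexamer, as TGACCT on the printed strand, starting 116 and 72 bases before the transcript start. Both are printed 5′ to 3′ along the gene.
Mef2a: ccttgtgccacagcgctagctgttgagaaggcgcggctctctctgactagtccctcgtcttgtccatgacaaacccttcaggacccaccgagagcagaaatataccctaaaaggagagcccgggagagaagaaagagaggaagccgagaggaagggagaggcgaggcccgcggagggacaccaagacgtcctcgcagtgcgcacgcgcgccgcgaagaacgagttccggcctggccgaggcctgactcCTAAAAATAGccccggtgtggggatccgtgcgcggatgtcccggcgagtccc
Mef2c: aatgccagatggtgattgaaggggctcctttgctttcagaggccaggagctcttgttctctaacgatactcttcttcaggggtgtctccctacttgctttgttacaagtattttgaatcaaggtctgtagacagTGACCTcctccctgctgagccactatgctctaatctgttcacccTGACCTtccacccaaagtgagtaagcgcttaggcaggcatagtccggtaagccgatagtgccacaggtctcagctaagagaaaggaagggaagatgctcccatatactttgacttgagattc

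A further Mef2c window, at chr13:83523406-83523705, held the hexamer 237 bases before its transcript start, and no Mef2c window held the MEF2 consensus. A match of letters is not evidence of binding. In the paper, PML/RARα put into normal c-Kit+ BM cells lowered Irf8 mRNA, and no such effect was seen on Mef2c. The paper does not count Mef2c among the direct targets of the fusion protein. Of the 233 genes tested that had a MEF2 consensus in a window, 29.2% were called lower and 22.3% higher, with a median log2 fold change of −0.13. The same values over all 11537 genes tested that had a window were 24.7%, 20.8% and −0.11. For the 1740 genes tested with the hexamer they were 24.5%, 22.4% and −0.09.

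Among the class IIa HDACs, Hdac9 showed the largest increase. Hdac9, at chr12:34047582-34917095 (gene identifier 79221), had 131, 101 and 115 scaled fragments in MP 1 to 3 and 1394, 1429 and 1311 in APL 1 to 3. All APL libraries were far above all MP libraries. Its level went from 0.830 ± 0.127 FPKM (SD, n = 3) in normal MPs to 10.2 ± 0.570 FPKM (SD, n = 3) in APL progenitors. Scaled fragments increased 11.9-fold, a log2 fold change of 3.57 (SE 0.12, 95% interval 3.30 to 3.83, limma adjusted p = 3.5e-08). A larger increase was seen for 2.77% of all genes tested. The gene is known for a shorter form without the deacetylase domain, which gene-level values cannot tell apart from the full form.

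Hdac5, at chr11:102195747-102230172 (gene identifier 15184), a kinase-responsive repressor of MEF2, had 790, 737 and 1019 scaled fragments in MP 1 to 3 and 1721, 2259 and 1978 in APL 1 to 3. The groups did not overlap, although both varied more than those of Mef2c. In FPKM it went from 8.41 ± 1.21 to 20.1 ± 2.68 (SD, n = 3 each). Scaled fragments increased 2.35-fold, a log2 fold change of 1.23 (SE 0.14, limma adjusted p = 5.7e-05).

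Hdac7, at chr15:97784365-97844502 (gene identifier 56233), was the most abundant of the 8 genes in normal MPs. It had 4007, 3982 and 4456 scaled fragments in MP 1 to 3 and 1490, 1798 and 1645 in APL 1 to 3. The lowest MP value was above the highest APL value by more than the range within either group. In FPKM it went from 38.6 ± 1.49 to 15.6 ± 1.43 (SD, n = 3 each), and scaled fragments decreased 2.53-fold, a log2 fold change of −1.34 (SE 0.09, limma adjusted p = 1.7e-06). The table gives Hdac7 1 locus with Slc48a1, which encodes a heme transporter. The 2 RefSeq genes overlap by 32 bases, and fragments there could be assigned to either. Slc48a1 moved the other way, with 2954, 2897 and 3470 scaled fragments in MP 1 to 3 and 8333, 9654 and 9447 in APL 1 to 3 (log2 fold change 1.56).

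Hdac4, at chr1:91932749-92148393 (gene identifier 208727), a deposited locus that ends short of the RefSeq start window of the gene at chr1:92180292-92180591, had 304, 317 and 273 scaled fragments in MP 1 to 3 and 326, 320 and 254 in APL 1 to 3. The lowest and the highest values of the 6 were both in APL libraries. The log2 fold change was 0.0032 with a 95% interval from −0.30 to 0.30 (limma adjusted p = 0.985). A change of the size of those of Hdac5, Hdac7 or Hdac9 lies outside that interval.

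The 5′ ends of Hdac5 and Hdac9 are shown as those of the 2 HDAC genes that rose. The Hdac5 window, on the minus strand at chr11:102230123-102230422, held a MEF2 consensus, in capitals, that starts 20 bases before the transcript start. It was the only HDAC window with this motif among the windows searched. The Hdac9 window at chr12:34528840-34529139, also on the minus strand, is that of an internal start and held the hexamer AGGTCA as TGACCT on the printed strand, in capitals, 120 bases before the transcript start.
Hdac5: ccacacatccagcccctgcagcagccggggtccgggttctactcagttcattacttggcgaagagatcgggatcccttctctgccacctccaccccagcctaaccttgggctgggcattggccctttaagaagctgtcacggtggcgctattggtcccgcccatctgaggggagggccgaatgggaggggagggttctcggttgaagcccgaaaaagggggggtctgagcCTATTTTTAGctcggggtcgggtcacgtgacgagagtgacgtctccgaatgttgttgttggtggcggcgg
Hdac9: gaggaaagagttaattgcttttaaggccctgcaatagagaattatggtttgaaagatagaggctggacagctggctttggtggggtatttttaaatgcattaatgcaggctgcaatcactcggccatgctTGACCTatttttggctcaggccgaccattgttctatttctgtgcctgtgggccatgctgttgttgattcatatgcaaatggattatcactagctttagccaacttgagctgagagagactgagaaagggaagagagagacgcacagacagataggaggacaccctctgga

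The outer Hdac9 window, at chr12:34917046-34917345, held neither motif. An internal Hdac7 window, at chr15:97814814-97815113, held the hexamer 179 bases before its transcript start. Gene-level values do not show which start was used.

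**Figure D2:**
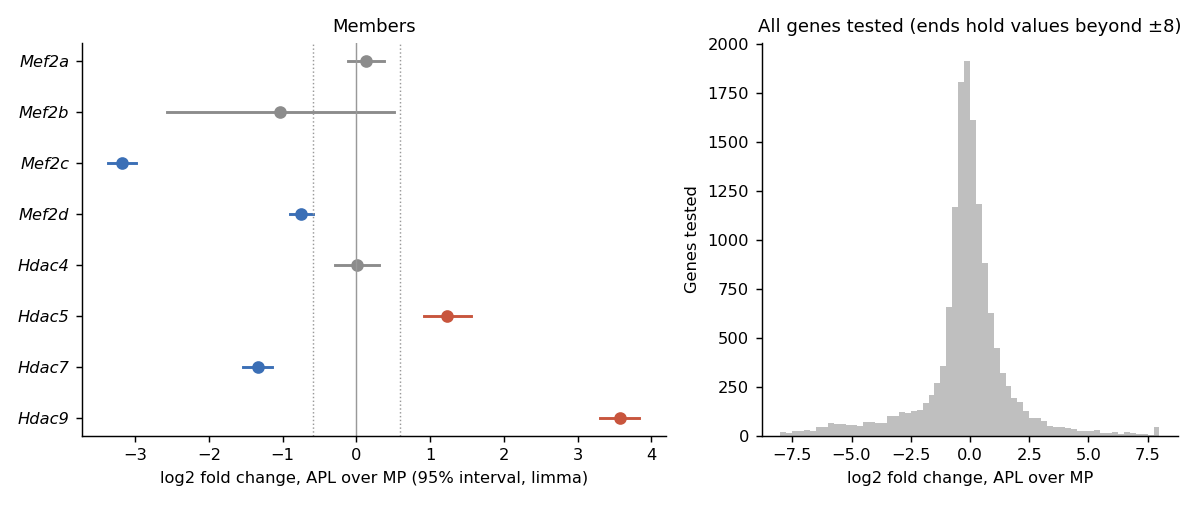
Left, log2 fold change of scaled fragments (x axis, APL over MP) of each gene with its 95% interval from limma, blue for called lower, red for called higher and grey for not called, with dotted lines at a fold change of 1.5. Right, histogram of the same quantity (x axis) over the 14595 genes tested (y axis, number of genes). Mef2c at −3.18 and Hdac9 at 3.57 lie in the tails of the distribution, which peaks near 0.

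Because FPKM are per length, the 8 genes can be ranked within each group. In normal MPs the order was Hdac7, Mef2d, Mef2c, Hdac5, Mef2a, Hdac4, Hdac9 and Mef2b, and the 3 values of each gene lay apart from those of the next. In APL progenitors the order was Hdac5, Hdac7, Mef2d, Hdac9, Mef2a, Hdac4, Mef2c and Mef2b, and of these neighbours only Hdac7 and Mef2d overlapped. Hdac9 was thus above Mef2a in APL progenitors and below Hdac4 in normal MPs. Mef2c went from above Hdac5 to below Hdac4.

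The summed level of the 4 MEF2 genes was 42.9, 42.1 and 42.8 FPKM in MP 1 to 3 and 22.0, 21.7 and 22.5 FPKM in APL 1 to 3. The 2 groups of sums did not overlap. Mef2d held 59.8% ± 0.692 of the sum in normal MPs and 69.7% ± 1.85 in APL progenitors (SD, n = 3 each). Mef2c held 28.5% ± 0.478 in normal MPs and 6.02% ± 0.583 in APL progenitors (SD, n = 3 each). Mef2a, whose own level did not pass the test, held 11.1% ± 0.502 and 23.7% ± 2.33 (SD, n = 3 each). Per fragment rather than per length, Mef2c would hold 53.5% in normal MPs and 15.3% in APL progenitors.

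The summed level of the 4 class IIa HDAC genes was 49.3, 48.9 and 53.4 FPKM in MP 1 to 3 and 44.6, 52.8 and 48.2 FPKM in APL 1 to 3, and these sums overlapped. What differed was the makeup. Hdac7 held 76.5% ± 0.854 of the sum in normal MPs and 32.1% ± 1.01 in APL progenitors (SD, n = 3 each). Hdac5 held 16.6% ± 1.54 and 41.2% ± 2.22, and Hdac9 held 1.64% ± 0.247 and 21.1% ± 1.98 (SD, n = 3 each). Hdac4 stayed a minor gene at 5.27% ± 0.744 and 5.65% ± 0.923 (SD, n = 3 each).

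Ratios within a library show the same exchange without a scaling factor between libraries. The FPKM ratio of Hdac9 to Mef2c was 0.0777, 0.0565 and 0.0709 in MP 1 to 3 and 7.68, 7.50 and 7.88 in APL 1 to 3. The ratio of Hdac5 to Hdac7 was 0.210, 0.199 and 0.242 in MP 1 to 3 and 1.24, 1.35 and 1.27 in APL 1 to 3. The ratio of the HDAC sum to the MEF2 sum was 1.15, 1.16 and 1.25 in MP 1 to 3 and 2.03, 2.44 and 2.14 in APL 1 to 3. All 3 ratios were higher in every APL library than in any MP library. These are descriptions of genes chosen with earlier results known and carry no p.

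**Figure D3:**
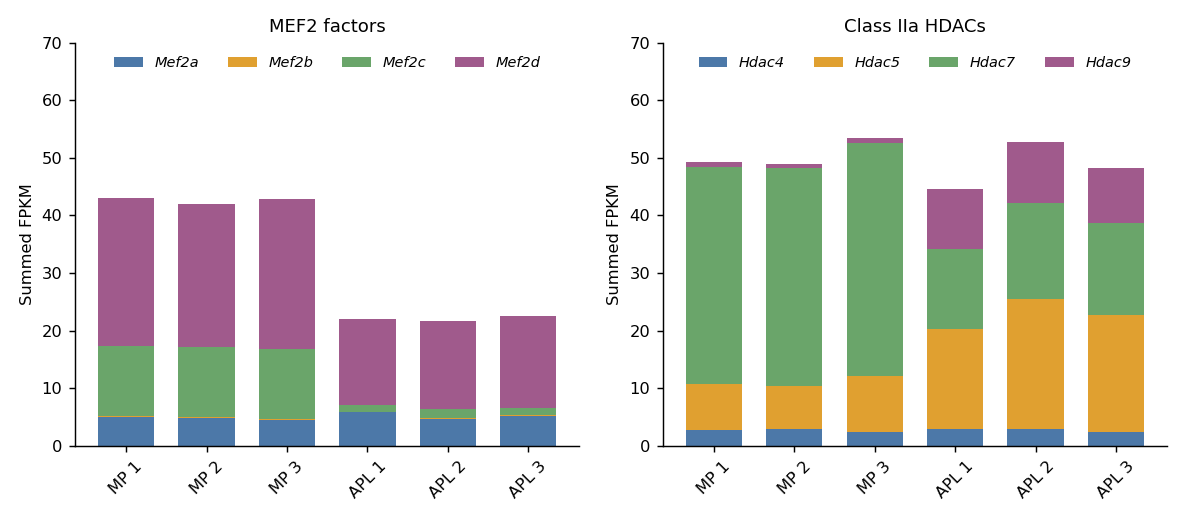
Stacked bars of the FPKM (y axis) of the 4 MEF2 genes (left) and of the 4 class IIa HDAC genes (right) in each of the 6 libraries. The MEF2 sum is lower in the APL libraries, while the HDAC sum is alike in height, with less Hdac7 (green) and more Hdac5 (orange) and Hdac9 (purple).

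The 5 called genes kept their direction and their call in each of the 17 alternatives. Library MP 3 stood farther from MP 1 and MP 2 (10.6 and 10.4 times counting noise, as the median over genes) than these stood from each other (3.02 times). Without it the log2 fold changes were −3.19 for Mef2c, −0.71 for Mef2d, 1.37 for Hdac5, −1.28 for Hdac7 and 3.57 for Hdac9. The scaled fragments per FPKM, which would move if the transcript length used for a gene differed between groups, changed between groups by −3.01% for Hdac9 to 1.34% for Mef2c relative to the median gene. On the log2 scale the change was −0.0463 for Hdac9. That lies outside the 5% to 95% range of −0.0410 to 0.0325 over all genes with over 10 scaled fragments in every library. Hdac7 and Mef2b lie on chromosomes 15 and 8, where the genes tested had a median log2 fold change of 0.46 and 0.48. The median lay between −0.23 and −0.06 on each of the other chromosomes. Relative to the median of its own chromosome, the log2 fold change was −1.8 for Hdac7, −3.06 for Mef2c and 3.75 for Hdac9.

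Other cell types in a sort can carry MEF2 and HDAC genes, and in bulk RNA fewer cells of a type and less RNA per cell cannot be told apart. Mef2c is known from B cells, megakaryocytes, monocytes, dendritic cells, endothelium and muscle, and Hdac7 from B cells and endothelium, so markers of these types were read beside them. Of 8 monocyte and dendritic markers tested, 5 were called lower and 1 (Ccr2) higher in APL progenitors. Their summed level was 89.2, 73.5 and 88.6 FPKM in MP 1 to 3 and 21.9, 23.1 and 22.4 FPKM in APL 1 to 3. Irf8 was the most abundant gene in normal MPs, and Ccr2 in APL 1 to 3, at 13.3, 12.5 and 13.0 FPKM. Only Siglech was at or under 3 fragments in every APL library. Of 8 megakaryocyte markers, 6 were called lower, and the sum of the list went from 75.7, 71.7 and 108 FPKM to 4.40, 4.76 and 6.06 FPKM. Pf4 was the most abundant gene in normal MPs. In APL 1 to 3 it was Gp1bb, which was not called, at 1.61, 1.98 and 2.22 FPKM. Gp9 was at or under 3 fragments in every APL library. All 7 erythroid markers were called lower, their sum going from 1499, 1639 and 2004 FPKM to 37.3, 37.0 and 36.8 FPKM. Car1 was the most abundant gene in normal MPs, and Tfrc in APL 1 to 3, at 32.5, 29.7 and 28.9 FPKM. The sums of these 3 lists were lower in every APL library, as were Mef2c, Mef2d and Hdac7. The stem and progenitor sum was lower too, at 194, 205 and 236 FPKM in MP 1 to 3 and 43.2, 44.6 and 44.8 FPKM in APL 1 to 3. The part of these lists in the decreases of Mef2c, Mef2d and Hdac7 was not tested.

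Of 11 B-lymphoid markers tested, 8 were called lower and 2, Igll1 and Vpreb1, higher. Their sum was 35.9, 35.1 and 45.6 FPKM in MP 1 to 3 and 258, 298 and 260 FPKM in APL 1 to 3. Nearly all of the APL sum came from Igll1, with 250, 288 and 253 FPKM in APL 1 to 3. In MP 1 to 3 Igll1 was at 0.864, 1.54 and 0.509 FPKM. Ebf1, Rag1, Rag2, Ms4a1 and Blnk were at or under 3 fragments in every APL library, and Ms4a1 in every MP library as well. Ebf1 and Rag2 were also low in MP 1 to 3, at 1.87, 5.71 and 2.71 and at 6.56, 3.81 and 6.31 scaled fragments. Some lymphoid genes fell together with Mef2c and Hdac7. Dntt, the terminal transferase of early lymphoid cells, was between 19.6 and 27.8 FPKM in normal MPs and between 0.195 and 0.327 FPKM in APL progenitors (log2 fold change −6.44), and Cd79b, a chain of the B-cell receptor complex, went from 12.8, 11.9 and 14.3 FPKM to 0.131, 0.351 and 0.262 FPKM (−5.62). Of 7 endothelial and stromal markers, 4 were called lower and 2, Col1a1 (log2 fold change 4.16) and Lepr (2.97), higher. The sums of this list were 13.1, 12.4 and 15.4 FPKM in MP 1 to 3 and 3.45, 4.17 and 4.79 FPKM in APL 1 to 3. Pecam1, which blood cells also carry, was their most abundant gene, Cdh5 and Col3a1 were at or under 3 fragments in every MP library, and Kdr, Tek, Col3a1 and Cxcl12 in every APL library. The 3 muscle markers tested had sums of 4.24, 3.84 and 4.90 FPKM in MP 1 to 3 and 1.89, 2.50 and 2.62 FPKM in APL 1 to 3. Mylpf, a myosin light chain and the most abundant of them, was called lower (log2 fold change −1.36, limma adjusted p = 0.0042), Ckm, the muscle creatine kinase, was called higher (1.03) at a limma adjusted p of 0.0470 that rose above 0.05 under several alternatives, among them without MP 2 (0.140), APL 1 (0.136) or APL 2 (0.119), and Acta1, skeletal actin, was at or under 3 fragments in each library. The B-lymphoid, endothelial and muscle genes that were lower moved with Mef2c, Mef2d and Hdac7. Igll1, Vpreb1, Col1a1, Lepr and Ckm of the same lists moved the other way. The part of these lists in the decreases of Mef2c, Mef2d and Hdac7 was not tested. In the T and NK list, led by Nkg7, none of the 3 genes tested was called (limma adjusted p from 0.238 to 0.802), and the sums lay between 235 and 268 FPKM in all libraries. Cd3e and Klrd1 were at or under 3 fragments in every MP library, as were Cd3e, Cd3g and Klrd1 in every APL library. The granulocytic lists had higher sums where Hdac5 and Hdac9 were high. The early list went from 9958, 8800 and 8888 FPKM to 24221, 28677 and 27937 FPKM with 4 of 6 genes called higher. It was led by Mpo in MP 1 to 3, at 3697, 3460 and 3490 FPKM, and by Elane in APL 1 to 3. The late list went from 18375, 11827 and 15308 FPKM to 56937, 59534 and 45649 FPKM with 2 of 7 called higher and 2 called lower. S100a8 alone held 59.5% of this sum in normal MPs and 79.3% in APL progenitors. S100a8 and S100a9 were the genes called higher. Ltf and Ngp were called lower, with log2 fold changes of −1.42 and −1.46, and Camp, Mmp8 and Mmp9 were not called. The part of both lists in the increases of Hdac5 and Hdac9 was not tested.

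Outside the 8 genes, 79 genes of the pathway were tested, of which 22 were called lower and 11 higher (41.8% in all, beside 46.1% of all genes tested), with a median log2 fold change of −0.23. The counts of each list stand beside 24.4% of all genes tested called lower and 21.7% called higher. Of the other histone deacetylases, 3 of 7 were called, all lower, with a median of −0.41. Hdac2, a class I deacetylase of the Sin3 and NuRD complexes, went from 4640 ± 105 to 2805 ± 67.5 scaled fragments (SD, n = 3 each), or by −0.73 on the log2 scale (SE 0.06, limma adjusted p = 9.7e-06). Hdac10, a polyamine deacetylase of class IIb, fell by 0.97 on the log2 scale, and Hdac11, the class IV gene, fell by 1.93. Hdac1 and Hdac3, the most abundant of those not called, had log2 fold changes of 0.14 and −0.41. Hdac3, the catalytic partner that class IIa HDACs borrow through corepressor complexes, was at 46.2 FPKM in normal MPs and 34.7 FPKM in APL progenitors.

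**Figure D4:**
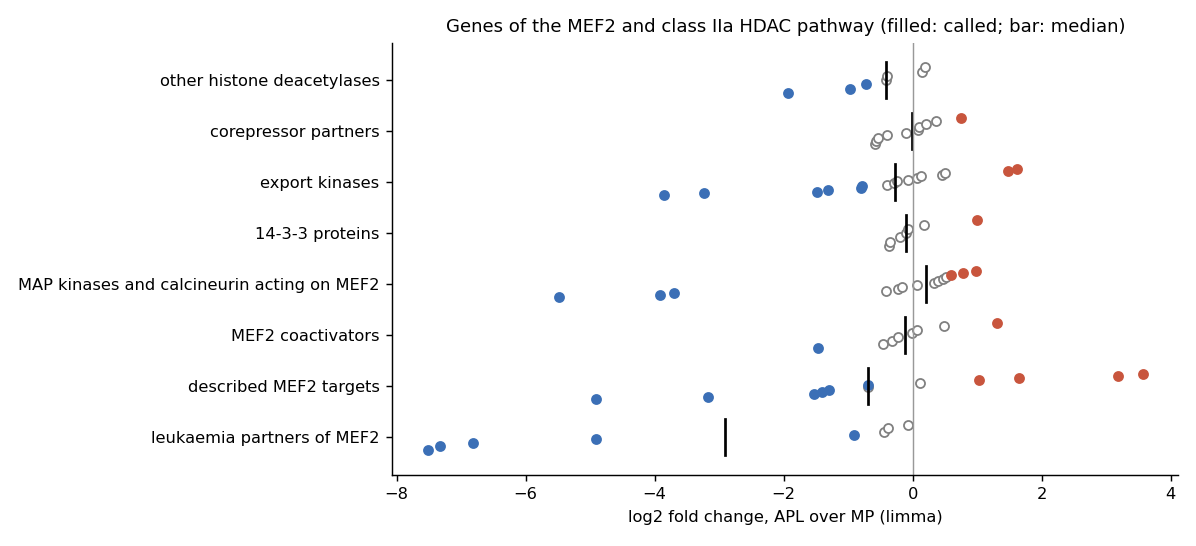
Log2 fold change of scaled fragments (x axis, APL over MP, limma) of each gene tested in 8 lists around the MEF2 and class IIa HDAC switch (rows), filled blue for called lower, filled red for called higher and open for not called, with a black bar at the median of each list. The leukaemia partners hold no gene called higher, and their lowest point, Hoxa9, is near 0 fragments in the APL libraries, so its size depends on the pseudocount (−8.30 to −2.62 over the alternative settings), whereas most corepressor partners lie near 0.

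Genes that act on class IIa HDACs moved in both directions. Of 16 export kinases tested out of 18 listed, 6 were called lower and 2 higher, with a median log2 fold change of −0.27. Camk1d, a calmodulin-dependent kinase, had 308, 269 and 271 scaled fragments in MP 1 to 3 and 20.03, 21.7 and 14.8 in APL 1 to 3, which is −3.85 on the log2 scale (SE 0.20, limma adjusted p = 3.9e-07). Camk2a fell by 3.23, Sik1, a salt-inducible kinase, by 1.49 and Camkk2, which activates the Camk1 and Camk4 kinases, by 0.80 on the log2 scale. Camk2d, the sister gene of Camk2a, rose from 139 ± 16.2 to 386 ± 8.01 scaled fragments (SD, n = 3 each), or by 1.47 on the log2 scale, as did Camk4 at low levels, by 1.62. Camk1 and Camkk1 were also called lower. With FPKM + 1, 6 of the kinases were called, since Camk4 (0.13) and Camkk1 (−0.52) then lay inside the 1.5-fold limit. Stk11 and Mark2, the most abundant kinases not called, had log2 fold changes of −0.29 and 0.07. Of the 7 14-3-3 genes, 1 was called, Ywhaz, which went from 9089 ± 184 to 18235 ± 1541 scaled fragments (SD, n = 3 each) and a log2 fold change of 1.00. Ywhaz lies on chromosome 15, whose median was 0.46. Ywhae and Ywhah, the most abundant of the others, had log2 fold changes of −0.20 and 0.18.

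Of 10 corepressor partners, 1 was called, Ctbp2, which binds the amino-terminal part of class IIa HDACs and rose by 0.75 on the log2 scale (limma adjusted p = 2.6e-05). The median of this list was −0.0050. Ctbp1, its paralogue, and Gps2, a subunit of the NCoR complex, had log2 fold changes of −0.58 and −0.57, just inside the 1.5-fold limit, and each passed it under some alternatives. Ncor1, a scaffold that bridges class IIa HDACs to Hdac3, had a log2 fold change of 0.21 and was not called.

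Genes that act on MEF2 itself were mixed. Of 14 MAP kinases and calcineurin subunits, 3 were called lower and 3 higher, with a median of 0.20. Ppp3ca, the catalytic α subunit of calcineurin, rose from 1460 ± 101 to 2501 ± 24.0 scaled fragments (SD, n = 3 each), or by 0.78 on the log2 scale (SE 0.07, limma adjusted p = 1.5e-05). Mapk13 and Mapk14, which encode p38δ and p38α, rose by 0.98 and 0.60 on the log2 scale, and Mapk14 lost its call under quantile normalization (0.52), with the same total (0.47) and without APL 2 (0.57). The 3 called lower were Ppp3cc, Mapk11 and Mapk12, all at or under 3 fragments in every APL library. Mapk11 and Mapk12 were low in normal MPs as well, at 0.211 and 0.298 FPKM, and lost their calls with FPKM + 1 (−0.27 and −0.37). Ppp3cc, another calcineurin catalytic subunit, had 119, 119 and 128 scaled fragments in MP 1 to 3 and 1.18, 1.73 and 2.47 in APL 1 to 3. Ppp3r1 and Map2k3 were the most abundant not called, at 0.07 and 0.51, and Map2k3 was called without APL 1 (0.60) or MP 3 (0.59). Over the alternative settings 4 to 7 genes of this list were called, with 4 with FPKM + 1, without MP 1 or without MP 2 and 7 without APL 1. Without an MP library, Mapk11 and Mapk12 no longer passed the filter on low values. Of 8 coactivators, Carm1, an arginine methyltransferase, fell by 1.47 and Kat2b, an acetyltransferase, rose by 1.31 on the log2 scale. Kat2b went from 869 ± 27.3 to 2156 ± 57.8 scaled fragments (SD, n = 3 each). Its paralogue Kat2a was not called at −0.45, nor was Smarca4, a remodelling ATPase, at −0.22. The median of the coactivators was −0.12.

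Of 14 genes described as MEF2 targets in blood, muscle or other cells, 12 were tested, 6 were called lower and 4 higher. That is 83.3% called, beside 46.1% of all genes tested. Over the alternative settings 5 to 10 were called, with 5 with FPKM + 1 and 7 without APL 2. Their median was −0.69, or −0.54 with 2 low genes set at their detection limit. Since Mef2c and Hdac9 are on this list too, it does not stand apart from the 8 genes. Irf8, a monocytic and dendritic regulator that the study singled out on these samples, had 3093, 2519 and 3285 scaled fragments in MP 1 to 3 and 87.2, 114 and 91.3 in APL 1 to 3 (log2 fold change −4.91, limma adjusted p = 1.8e-08). Egr1 and Jun, immediate early genes, had log2 fold changes of −1.40 and −0.69 and were called lower. Jun had 9702, 4907 and 8209 scaled fragments in MP 1 to 3 and 4232, 3789 and 5802 in APL 1 to 3, and its groups overlapped. Klf6 rose from 975, 479 and 540 scaled fragments to 2050, 1800 and 2125, a log2 fold change of 1.65 (limma adjusted p = 2.2e-04). Klf2 and Klf4 did not pass the test, with log2 fold changes of −0.70 and 0.11. Low genes of the list carried less stable calls. Nr4a1, an orphan nuclear receptor, was called lower at −1.53, Ppargc1a, a transcriptional coactivator, higher at 3.19 and Slc2a4, a glucose transporter, lower at −1.29, and these calls were lost with FPKM + 1, as was that of Ckm. Slc2a4 lost its call also with FPKM + 0.1, with quantile normalization and without MP 1, MP 3 or APL 2. MP 2 was the lowest MP library for Jun, Egr1, Klf2, Klf4 and Klf6. Without it Klf2 was called lower at −1.29, against −0.25 without MP 1, and Klf4 had a log2 fold change of −0.24. Jun lost its call with FPKM + 1 (−0.68) and without MP 1 (−0.49), MP 3 (−0.61), APL 1 (−0.64) or APL 2 (−0.56).

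Of 8 genes tied to MEF2 factors in leukemia, 5 were called (62.5%), all lower, with a median of −2.91. Of all genes tested, 46.1% were called and 24.4% were called lower. Meis1, Irf8 and Sox4, like Mef2c, were singled out by the study on these samples, so their direction is not independent evidence. Hoxa9, a homeobox partner of Meis1, had 217, 204 and 298 scaled fragments in MP 1 to 3 and 1.18, 0 and 0 in APL 1 to 3. Meis1 had 673, 773 and 892 scaled fragments in MP 1 to 3 and 2.36, 6.07 and 3.70 in APL 1 to 3 (log2 fold change −7.33, limma adjusted p = 8.0e-08). Sox4 and Bcl9, a fusion partner of MEF2D, fell by 6.82 and 0.91 on the log2 scale. Lmo2 and Hnrnpul1, the most abundant not called, had log2 fold changes of −0.38 and −0.08.

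The genomic surroundings of Hdac9 and Mef2c were read as well, and their neighbours are named after their values were seen. Within 1000 kb of Hdac9, 5 genes were tested, of which 2 were called higher and 1 lower. Prps1l1, 67.7 kb beyond the 5′ end of Hdac9, had 13.1, 19.0 and 8.12 scaled fragments in MP 1 to 3 and 3580, 3453 and 3487 in APL 1 to 3. On the log2 scale it rose by 8.0 (SE 0.25, limma adjusted p = 2.8e-08). Prps1l1 is a near copy of Prps1, which went from 3046 ± 220.4 to 2137 ± 110 scaled fragments (SD, n = 3 each), so the division of fragments between the copies is uncertain. Snx13, 130 kb away on the same side, had a log2 fold change of 1.03, and Ahr, the aryl hydrocarbon receptor at 581 kb, one of −4.79. On the other side, Twistnb at 608 kb and Atxn7l1 at 796 kb were not called, with log2 fold changes of −0.35 and 0.07. Mef2c had 1 gene within 1000 kb, Tmem161b at 555 kb, which had a log2 fold change of 0.26 and was not called.

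**Figure D5:**
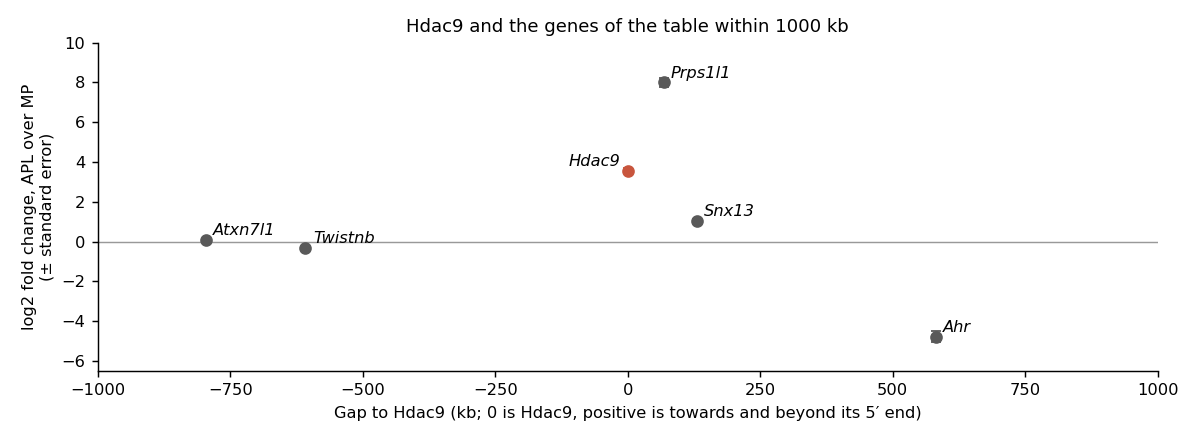
Log2 fold change of scaled fragments (y axis, APL over MP, bars for ± 1 standard error) of Hdac9 (red) and of the genes of the table within 1000 kb (grey), against the gap to Hdac9 in kb (x axis, 0 for Hdac9 and positive beyond its 5′ end). The 2 genes nearest to its 5′ end, Prps1l1 and Snx13, are above 0, Ahr is below, and the 2 genes on the other side are near 0.

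The genes whose pattern over the 6 libraries was most like that of each member were found as the 2 smallest Euclidean distances between centred log2 values, among 10310 genes with a mean of at least 100 scaled fragments. The nearest to Mef2c were Plxnc1 (distance 0.170), a semaphorin receptor, and Ugcg (0.188), a glucosylceramide synthase, with log2 fold changes of −3.05 and −3.08. Hdac9 was most like Ptgir (0.129), the prostacyclin receptor, and Clec5a (0.147), a myeloid lectin, with log2 fold changes of 3.61 and 3.49. For Hdac5 they were Fbxl2 (0.117) and Map1lc3b (0.135), and for Hdac7 Fam78a (0.095) and Mknk2 (0.113). Mef2d had the closest pair, Armcx2 (0.044) and Apbb1ip (0.046). Mef2a was most like Dclre1a (0.051) and Akap10 (0.065), and Hdac4 like Zfp280b (0.128) and Setd1b (0.140). The low Mef2b had no close gene, and Alox15 lay at a distance of 1.65. With 6 libraries in 2 groups such likeness mostly reflects the size of the group difference.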

How the data were processed

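The authors deposited 1 table with, per gene and library, FPKM values and a fragment signal on the scale of estimated fragments. The deposited signal was multiplied by a factor of each library: divided by its smallest step, 84.3% to 87.1% of nonzero values were whole within 0.01, so no count test was used. The labels' processing notes list CASAVA 1.8, TopHat2 2.0.6 and mm10, whereas the paper names STAR, mm9 and HTSeq-count. The tool behind the table is not given in the sources used here, nor is strand. Loci are those of the table with 1 added to the start. The start then equalled that of the RefSeq gene on GRCm38 for 7057 of 16361 genes, against 586 as deposited, and most loci differ from RefSeq in their limits.

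Genes with at least 1 scaled fragment in at least 3 libraries were tested with limma 3.58.1 (R 4.3.3; lmFit, eBayes with trend) on log2(scaled fragments + 1), APL against MP, with Benjamini-Hochberg adjustment. Beside the 8 genes, the text names per pathway list up to 4 called genes per direction with the largest change and a mean of at least 100 scaled fragments, and the 2 most abundant genes not called. Other called genes of a list, Ncor1, Prps1, Slc48a1, single markers and the neighbours were named after their values were seen. The genes and lists were chosen with earlier results of these data known. The values of some genes are not reported here. Levels between genes were compared in FPKM, except for family shares that are also given per scaled fragment. Figures used matplotlib 3.10.9.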

Additional observations from a re-analysis of the deposited data

How the results depend on the processing

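The count of 5 called genes and their directions were the same under 17 alternatives, which covered FPKM, other pseudocounts, filters and scalings, voom weights, the library number as a block and each library left out. Mef2c ranged from −3.31 to −2.50 and Hdac9 from 2.61 to 3.70 on the log2 scale, the smaller sizes with FPKM + 1. Scaling to the same total moved the median of all genes to −0.23, Mef2a to −0.0025 and Hdac4 to −0.13, neither of them called. Hdac4 lay between −0.0615 and 0.12 with 1 library left out. Mef2b gave no value with a minimum of 10 scaled fragments.

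With FPKM + 1, 2201 genes were called lower and 2275 higher, and 5 described MEF2 targets were called. The sizes of low genes also shrank, Camk1d to −1.12, Camk2a to −1.20, Camk2d to 0.98, Hoxa9 to −2.62, Meis1 to −3.19 and Sox4 to −3.96, all still called, whereas Camk4 (0.13), Camkk1 (−0.52), Mapk11 (−0.27), Mapk12 (−0.37), Ckm (0.35), Nr4a1 (−0.56), Ppargc1a (0.21) and Slc2a4 (−0.068) lost their calls. Jun, which is not a low gene, lost its call at nearly the same size (−0.68). Of the corepressors, 3 were called with quantile normalization, 4 with the same total and 1 to 3 with 1 library left out. With scaled fragments in place of FPKM, Mef2c held 53.5% and 15.3% of the MEF2 sum in MP and APL, and Hdac9 held 2.15% and 26.0% of the HDAC sum. With the same total, Mark2 (−0.0604), Ppp3r1 (−0.0613), Klf4 (−0.0217), Nkg7 (−0.0596) and Akap10 (−0.0244) changed sign, as did Ppp3r1 (−0.0398) and Nkg7 (−0.0109) with quantile normalization and Zfp280b (0.0318) and Setd1b (0.0359) with median ratio scaling. With 1 library left out, Klf4 ran from −0.24 to 0.39, Zfp280b from −0.12 to 0.0630 and Setd1b from −0.12 to 0.0476. None of these was called. The cause was not tested.

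Same-numbered MP and APL libraries deviated together with correlations of 0.127, 0.0013 and 0.117. For differently numbered libraries the correlations ran from −0.241 to 0.158. The same-numbered values lie within that range, so they show no pairing by number. With the replicate block 3589 genes were called lower and 3164 higher, 5 of the 8 genes were called, and no call of the 8 genes or of the pathway genes named by the rule above changed. Depth limits Mef2b, for which no difference was detected. The table holds gene-level values, so isoforms, protein levels and the place of HDACs in the cell were not measured.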
